A study of Mus musculus with 6 samples.

Results

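The cell cycle and mitosis genes described here are 33 genes of DNA replication, mitosis and G1 control, chosen by symbol. All 33 are among the 16179 genes of the deposited table, and all 33 passed the filter on low values (a mean of at least 10 normalised reads over the libraries). By role, 18 act in mitosis, 10 in DNA replication and 3 in G1, and Hmgb2 and Stmn1 are treated apart. Their expression was measured by RNA sequencing in BODIPY-high and BODIPY-low microglia sorted from hippocampi of male mice without progranulin, aged 10 months (Grn knockout, strain B6.129S4(FVB)-Grntm1.1Far/Mmja). BODIPY stains neutral lipids, so BODIPY-high cells are rich in lipid droplets and BODIPY-low cells are poor in them. Each group had 3 libraries, each from hippocampi of 2 pooled mice and about 10000 live CD11b-positive, CD45-low cells. The Grn knockout is common to both groups, and wild-type cells were not analysed here. The labels do not say whether a BODIPY-high and a BODIPY-low library share a pool of mice, and the main test did not pair them. The p-values cover the library-to-library spread, which may be technical.

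A cell that divides first copies its DNA in S phase and then separates the copies in mitosis. The replication genes encode the MCM helicase, the sliding clamp and the enzymes that make deoxynucleotides. The mitosis genes encode cyclins, kinases, motors and kinetochore proteins that are made late in the cycle and destroyed as mitosis ends. D-type cyclins admit cells to the cycle, and Cdkn1a encodes p21, an inhibitor that holds them back. Microglia of the adult brain renew themselves by slow local division, so few are in cycle at any time.

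The promoters of these genes are shown because the replication and mitosis members carry different control letters. Many replication genes are controlled through E2F sites, and many mitosis genes through the cell cycle genes homology region (CHR) together with CCAAT boxes, which NF-Y binds. Windows of 300 bases (250 before and 50 after the annotated start, GRCm38, from RefSeq) were found for 27 of the 33 members, and Mcm4, Ccna2, Tpx2, Aurkb, Stmn1 and Ccnd1 had no entry. Each motif was searched on both strands. The CHR letters were TTTGAA and TTCGAA, the NF-Y letters were CCAAT, and the E2F letters were TTTCCCGC, TTTCGCGC, TTTGCCGC and TTTGGCGC. The searched motifs do not contain one another, although E2F matches on opposite strands can overlap, as in Mcm5 and Mcm6.

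CHR letters occurred in 12 of 15 mitosis members with a window and in 2 of 9 replication members, against 19.2% of all 32851 windows. The mitosis members without them were Birc5, Ccnb1 and Cenpu. E2F letters occurred in 1 of 15 mitosis members (Cdk1) and in 4 of 9 replication members (Mcm3, Mcm5, Mcm6 and Mcm7), against 2.26% of all windows. CCAAT occurred in 14 of 15 mitosis members and in 8 of 9 replication members, against 37.4% of all windows. CHR and CCAAT letters stood in the same window in 12 of 15 mitosis members and in 2 of 9 replication members, against 7.52% of all windows. The 27 members had 30 windows, and a member counted if any of its windows matched. Neither Ccnd3 nor Cdkn1a had CHR or E2F letters in these windows. A match is a description of the letters and not evidence that a factor binds.

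Stretches of 6 promoters follow, read 5′ to 3′ on the gene's strand, with the matches in capitals. Ccnb2, Mki67 and Hmgb2 carry CHR and CCAAT letters and fell in BODIPY-high libraries, Cdk1 carries all of the motifs, and Mcm6 and Mcm5 carry E2F and CCAAT letters. Other mitosis members with CHR and CCAAT letters, such as Top2a and Plk1, did not pass the test described below. Cdkn1a, which also fell, has neither CHR nor CCAAT letters in its window. Ccnb2 is at chr9:70421543-70421654 (minus strand), with CHR letters from position 5 after the start and CCAAT letters from positions -87, -54 and -21 in the stretch shown. Positions count from the annotated start, and the base before it is -1. Mki67 is at chr7:135716465-135716574 (minus strand), with CHR letters from positions -116 and -98. Hmgb2 is at chr8:57511758-57511842 (plus strand), with CHR letters from position -30. Cdk1 is at chr10:69352913-69353052 (minus strand), with E2F letters from position -131 and CHR letters from positions -71 and -15. Mcm6 is at chr1:128359706-128359825 (minus strand), with E2F letters from positions -110, -106 and -47. Mcm5 is at chr8:75109344-75109508 (plus strand), with E2F letters from positions -153 and -149.
Ccnb2: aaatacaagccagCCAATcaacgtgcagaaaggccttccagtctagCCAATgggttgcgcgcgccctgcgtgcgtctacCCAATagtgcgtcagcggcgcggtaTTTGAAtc
Mki67: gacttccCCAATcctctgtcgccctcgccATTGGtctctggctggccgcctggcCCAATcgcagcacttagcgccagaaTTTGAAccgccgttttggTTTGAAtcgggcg
Hmgb2: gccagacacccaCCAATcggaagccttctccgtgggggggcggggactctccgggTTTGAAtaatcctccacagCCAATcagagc
Cdk1: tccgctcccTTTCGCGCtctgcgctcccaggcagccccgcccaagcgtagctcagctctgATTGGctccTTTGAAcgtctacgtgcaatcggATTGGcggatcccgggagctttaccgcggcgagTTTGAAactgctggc
Mcm6: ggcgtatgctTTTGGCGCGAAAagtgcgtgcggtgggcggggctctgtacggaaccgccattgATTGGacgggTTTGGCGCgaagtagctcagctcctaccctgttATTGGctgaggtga
Mcm5: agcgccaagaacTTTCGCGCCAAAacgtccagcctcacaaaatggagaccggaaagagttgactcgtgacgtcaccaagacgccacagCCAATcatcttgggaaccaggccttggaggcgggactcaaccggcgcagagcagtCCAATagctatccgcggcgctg

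**Figure D1:**
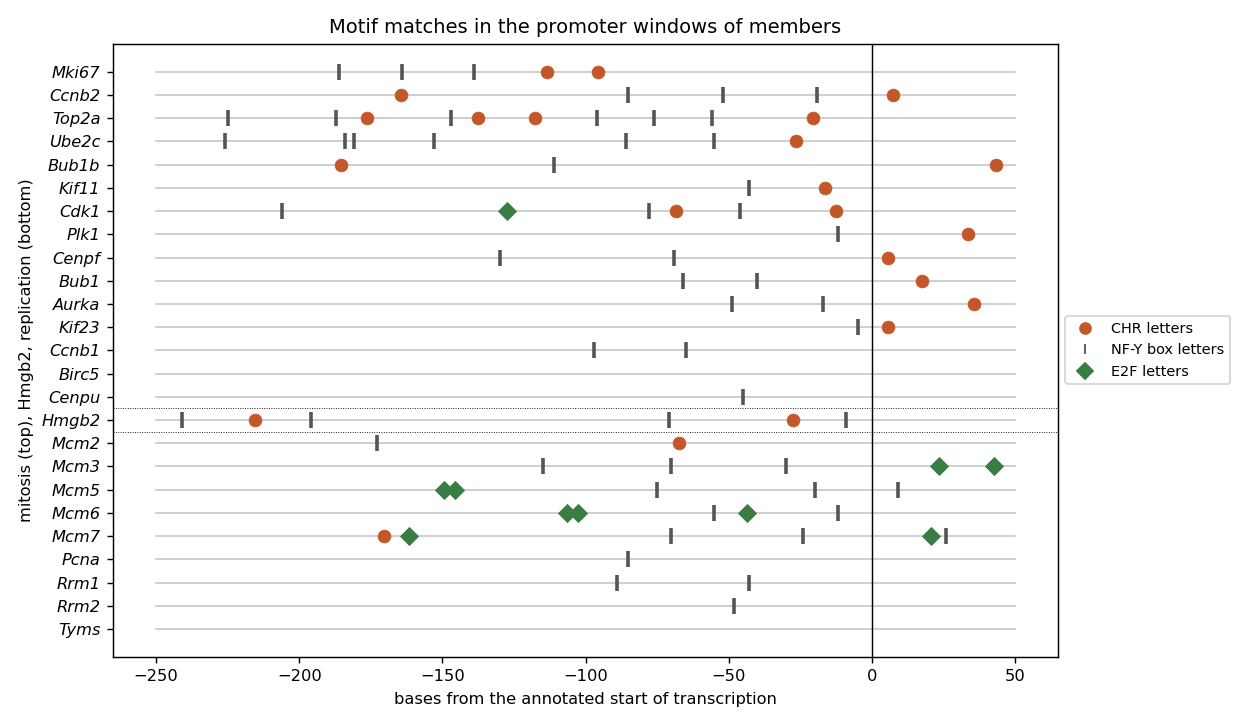
Positions of CHR, NF-Y box and E2F letters in the promoter windows of 15 mitosis members (top), Hmgb2 and 9 replication members (bottom), in bases from the annotated start of transcription. CHR letters lie in 12 of the 15 mitosis windows, and E2F letters in 4 of the 9 replication members, 1 window being drawn for Mcm7.

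Total recovered reads per library lay between 24982215 and 34899425. Grn was listed at 468 to 1614 normalised reads in BODIPY-high libraries and at 416 to 990.1 in BODIPY-low libraries. Where its reads lie in the gene was not analysed here, so these values do not check the deletion. The 10 microglial markers summed to between 1147760 and 1252650 normalised reads in BODIPY-high and between 1291400 and 1504020 in BODIPY-low libraries. These ranges did not overlap. All BODIPY-high libraries lay below all BODIPY-low libraries for 5 of the 10 markers, or 50%, against 13.4% of all tested genes. Of these 10, 3 fell (Cx3cr1, Gpr34 and P2ry13), or 30%, against 3.52% of all genes in the test described below. With 1 library left out, the call held in 6 of 6 fits for Gpr34 and in 1 of 6 for Cx3cr1 and for P2ry13. Differences below are on the scale of log2(normalised reads + 1), BODIPY-high minus BODIPY-low, from limma fitted to 12821 genes, with a Benjamini-Hochberg adjusted p below 0.05 as the threshold. In that test 3.52% of all genes fell and 9.79% rose in BODIPY-high libraries (13.3% in either direction), and the median difference of all genes was -0.01.

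Of the mitosis members, Mki67 and Ccnb2 fell in BODIPY-high libraries, and the other 16 had negative differences that did not pass the test. All 18 mitosis members had a negative log2 difference, against 51.9% of all tested genes, and their median was -0.68. The 2 that passed are 11.1% of the 18, against 3.52% of all genes that fell. At an unadjusted p below 0.05, 11 of the 18 were lower, against 11.0% of all genes, and none was higher, against 16.1%. Cenpu passed the filter on low values only through BODIPY-low libraries (mean 4.14 in BODIPY-high and 16.2 in BODIPY-low), so its direction was partly set by the filter. Without it, 17 of 17 had a negative difference, with a median of -0.62, and 10 were lower at an unadjusted p below 0.05. On recovered reads edgeR called 2 of the 18, both lower (3.33% of all genes were lower and 9.48% higher), and DESeq2 called 4, all lower (4.9% lower and 11.2% higher). Of the 10 replication members 4 had a negative difference and none passed in limma, edgeR or DESeq2, with a median of 0.01 and 1 at an unadjusted limma p below 0.05. Summed over the 18 mitosis members, normalised reads were 2155, 2248 and 1911 in BODIPY-high replicates 1, 2 and 3, against 3938, 2428 and 4217 in BODIPY-low replicates 1, 2 and 3. The groups did not overlap, and BODIPY-low replicate 2 lay only slightly above the highest BODIPY-high library. The sums over the 10 replication members were 10058, 9326 and 11617 in BODIPY-high libraries and 10650, 9918 and 10594 in BODIPY-low libraries, which overlapped. For each 100 replication reads there were 21.4, 24.1 and 16.4 mitosis reads in BODIPY-high libraries and 37.0, 24.5 and 39.8 in BODIPY-low libraries. In bulk samples, fewer dividing cells, less of these RNAs per cell and a different mix of cell types cannot be told apart.

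**Figure D2:**
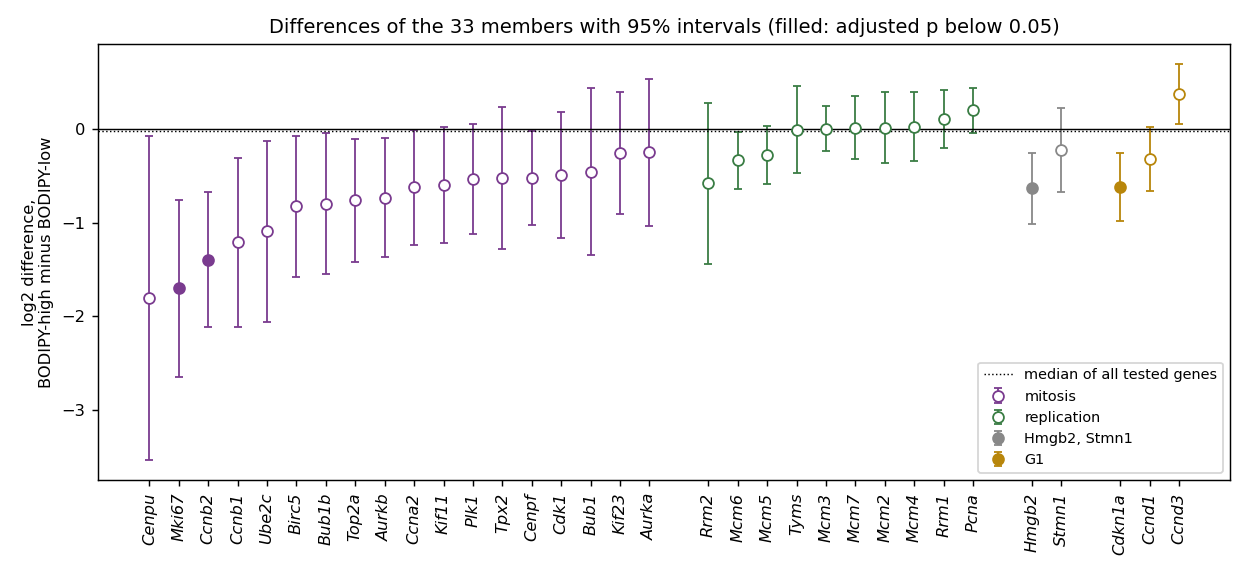
Log2 difference, BODIPY-high minus BODIPY-low, of each of the 33 members with its 95% interval from limma, ordered within each role; filled points passed the adjusted test and the dotted line is the median of all tested genes (-0.01). All 18 mitosis members lie below 0, and the replication members lie on both sides of it.

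Mki67 encodes Ki-67, a coat of mitotic chromosomes used as a stain for cycling cells (chromosome 7, 135689784 to 135716361). Its normalised reads were 49.9, 104 and 27.0 in BODIPY-high replicates 1, 2 and 3, against 192, 145 and 183 in BODIPY-low replicates 1, 2 and 3. All BODIPY-high libraries lay below all BODIPY-low libraries, and BODIPY-high replicate 2 was the closest to them. Mki67 averaged 60.4 ± 39.6 in BODIPY-high and 173 ± 25.0 in BODIPY-low libraries (SD, n = 3 each), a log2 difference of -1.70 (SE 0.43, limma adjusted p = 0.0240). These values rest on 53, 92 and 34 recovered reads in BODIPY-high and 168, 136 and 197 in BODIPY-low libraries. With 1 library left out, the limma call held only without BODIPY-high replicate 2 (log2 difference -2.20, adjusted p = 0.00381), and was otherwise lost at adjusted p between 0.0507 and 0.0936.

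Ccnb2 encodes cyclin B2, which activates Cdk1 at the entry to mitosis (chromosome 9, 70407692 to 70421547). It had 126, 87.2 and 65.2 normalised reads in BODIPY-high replicates 1, 2 and 3, against 309.9, 158 and 272 in BODIPY-low replicates 1, 2 and 3. The groups did not overlap, and BODIPY-low replicate 2 was the lowest of its group. The means were 92.9 ± 30.9 in BODIPY-high and 246 ± 79.2 in BODIPY-low libraries (SD, n = 3 each), with a log2 difference of -1.39 (SE 0.33, limma adjusted p = 0.0172). With 1 library left out the limma call was lost without BODIPY-high replicate 3 (adjusted p = 0.0671), BODIPY-low replicate 1 (0.0609) or BODIPY-low replicate 3 (0.0842).

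**Figure D3:**
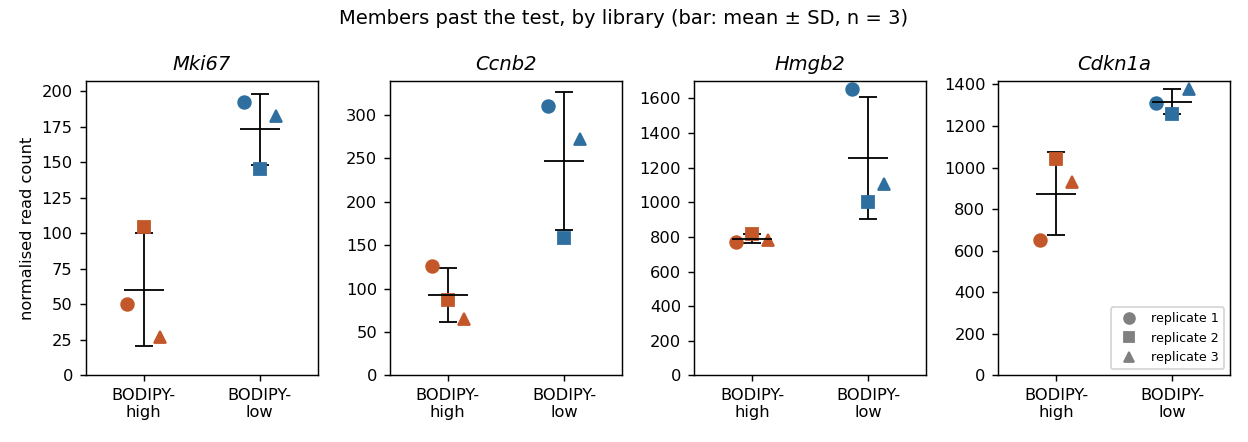
Normalised read counts of the members that passed the test, Mki67, Ccnb2, Hmgb2 and Cdkn1a, in each BODIPY-high and BODIPY-low library (symbols mark the replicate; bars are mean ± SD, n = 3). For each gene all BODIPY-high libraries lie below all BODIPY-low libraries, for Mki67 at most 104 against at least 145.

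The other cyclins and their kinase did not pass. Ccnb1, which encodes cyclin B1, had 231, 156 and 70.7 normalised reads in BODIPY-high libraries, against 314, 212 and 479.7 in BODIPY-low libraries. The groups overlapped through BODIPY-high replicate 1 and BODIPY-low replicate 2, and the log2 difference was -1.21 (SE 0.41, limma adjusted p = 0.0804). DESeq2 on recovered reads gave Ccnb1 an adjusted p of 0.0286. Ccna2, the cyclin A gene active from S phase into mitosis, averaged 183 ± 29.8 in BODIPY-high and 293 ± 108 in BODIPY-low libraries (SD, n = 3 each), a log2 difference of -0.62. Cdk1, the kinase both B cyclins activate, had 110.2, 271 and 165 normalised reads in BODIPY-high libraries, against 281, 206 and 236 in BODIPY-low libraries. Its groups overlapped, because BODIPY-high replicate 2 lay above 2 of the BODIPY-low libraries (log2 difference -0.49, 95% interval -1.16 to 0.19).

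Among the genes of chromosome structure and kinetochores, Top2a, which untangles DNA before separation, had 191, 304 and 226 normalised reads in BODIPY-high libraries, against 553, 243 and 473 in BODIPY-low libraries. BODIPY-low replicate 2 lay within the BODIPY-high range, and the log2 difference was -0.76 (SE 0.30, limma adjusted p = 0.127). DESeq2 gave Top2a an adjusted p of 0.0456. Cenpf, which binds the outer kinetochore, had the tightest groups, with 118, 108 and 118 normalised reads in BODIPY-high libraries against 164, 159.8 and 169 in BODIPY-low libraries. Its groups did not overlap, yet the moderated test gave an adjusted p of 0.170 (log2 difference -0.52, SE 0.23). Cenpu, a protein of the inner kinetochore, had only 2, 3 and 9 recovered reads in BODIPY-high libraries, against 21, 11 and 14 in BODIPY-low libraries. Its groups did not overlap, and its log2 difference of -1.81 carried a 95% interval from -3.54 to -0.07 (limma adjusted p = 0.167). Birc5, or survivin, of the chromosomal passenger complex, had a log2 difference of -0.82 (limma adjusted p = 0.150).

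The mitotic kinases and the spindle checkpoint also had negative differences that did not pass. Aurkb, the kinase of the passenger complex, averaged 107 ± 22.5 normalised reads in BODIPY-high and 180.4 ± 52.2 in BODIPY-low libraries (SD, n = 3 each), a log2 difference of -0.73. Plk1, a kinase of mitotic entry and exit, averaged 145 ± 27.7 in BODIPY-high and 213 ± 54.9 in BODIPY-low libraries. Aurka, the kinase of spindle poles, overlapped widely, at 178, 118 and 98.5 in BODIPY-high against 145, 97.0 and 245 in BODIPY-low libraries. Its difference of -0.24 had the smallest size among the mitosis members. Bub1b, which encodes the checkpoint protein BubR1, had 146, 102 and 179 normalised reads in BODIPY-high libraries, against 288, 141 and 347 in BODIPY-low libraries. The overlap came from BODIPY-low replicate 2, and the log2 difference was -0.80 (SE 0.34, limma adjusted p = 0.163). Bub1, its partner kinase, had a difference of -0.45 and an interval from -1.35 to 0.44.

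The motors, the spindle factor Tpx2 and the ubiquitin enzyme Ube2c lay between -0.25 and -1.09. Kif11, the motor that pushes spindle poles apart, had 122, 99.7 and 121 normalised reads in BODIPY-high libraries, against 236, 123 and 178 in BODIPY-low libraries. These groups barely separated, since BODIPY-low replicate 2 stood next to BODIPY-high replicate 1 (log2 difference -0.60, SE 0.28, limma adjusted p = 0.204). Kif23, a motor of cell separation, differed by -0.25 and Tpx2, which nucleates spindle microtubules, by -0.52. Ube2c, which with the anaphase-promoting complex marks the B cyclins for destruction, averaged 56.6 ± 29.7 in BODIPY-high and 115 ± 39.2 in BODIPY-low libraries (SD, n = 3 each), a log2 difference of -1.09 (limma adjusted p = 0.136).

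BODIPY-low replicate 2 was often the lowest of its group. It was the lowest for 18 of 18 mitosis members, 7 of 10 replication members, both Hmgb2 and Stmn1, and 2 of 3 G1 members. Among the mitosis members BODIPY-low replicate 3 was the highest for 10 and replicate 1 for 8. Among the BODIPY-high libraries no replicate stood out in this way, and replicates 1, 2 and 3 were the lowest for 6, 4 and 8 members. All BODIPY-high libraries lay below all BODIPY-low libraries for 5 members (Mki67, Ccnb2, Kif11, Cenpf and Cenpu), against 13.4% of all tested genes, and for 4 of 17 without Cenpu. In each of the other 13 members the lowest BODIPY-low library was replicate 2. BODIPY-low replicates 1 and 3 both lay above every BODIPY-high library for 15 of the 18 mitosis members and for 2 of the 10 replication members. This count leaves out BODIPY-low replicate 2, the lowest for all 18 mitosis members. Its share over all tested genes was not computed, so it is a description only. Without BODIPY-high replicate 3, BODIPY-low replicate 1 or BODIPY-low replicate 3, limma called 0 mitosis members, and DESeq2 on all libraries called 4.

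**Figure D4:**
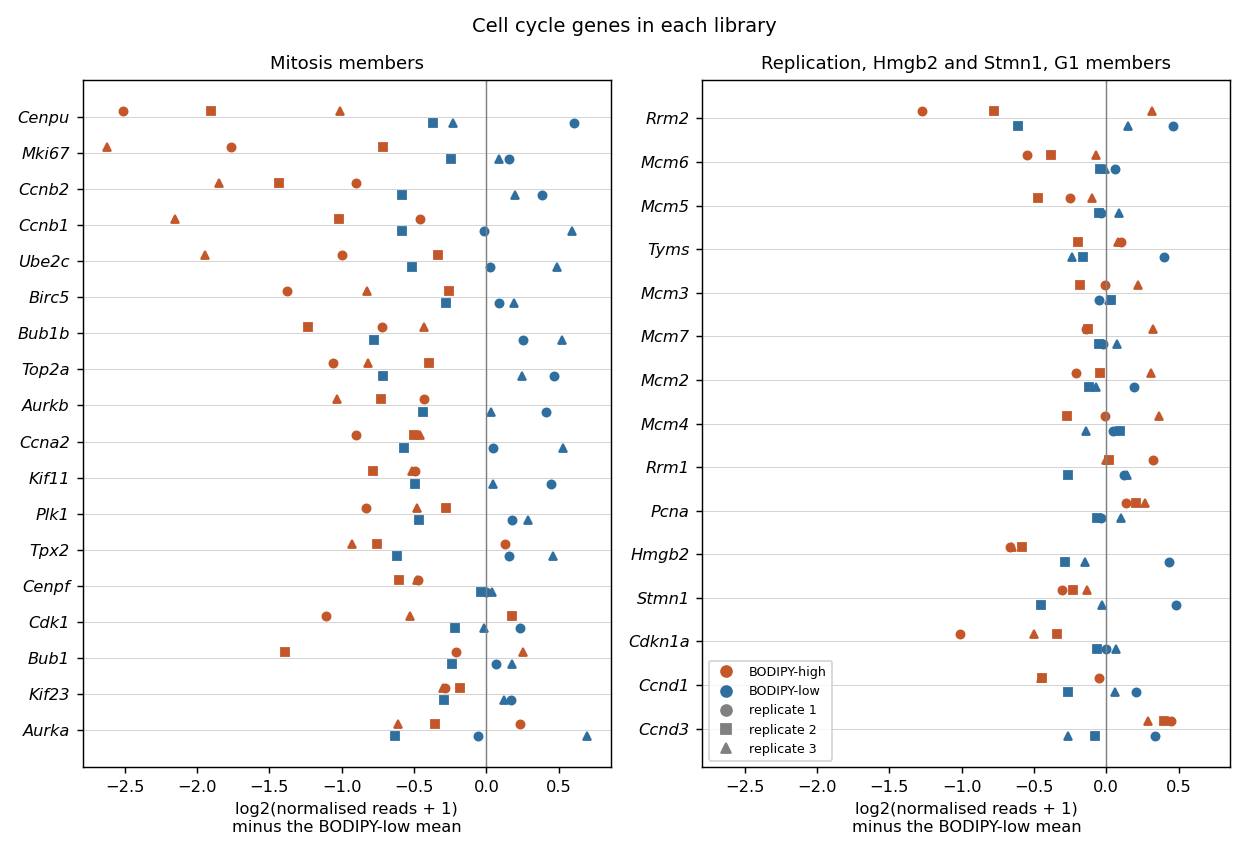
Log2(normalised reads + 1) of each member in every library, relative to the mean of the BODIPY-low libraries, for the mitosis members (left) and the others (right), with symbols marking the replicate. BODIPY-low replicate 2 (squares) is the lowest BODIPY-low library for all 18 mitosis members. Of the 10 replication members, all BODIPY-high libraries lie below all BODIPY-low libraries for 2 and above them for 1. The shares of all tested genes are 13.4% and 18.0%.

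Replication genes were expressed well above the mitosis genes. Per kilobase of exon, normalised reads averaged over both groups had a median of 173 over the 10 replication members (range 51.0 to 864) and of 37.8 over the 18 mitosis members (range 2.55 to 111). Within the MCM helicase, which unwinds DNA at the fork, Mcm3 led per kilobase of exon with 869.9 in BODIPY-high and 859 in BODIPY-low libraries. Mcm3 had 3207, 2836 and 3749 normalised reads in BODIPY-high libraries, against 3110, 3293 and 3263 in BODIPY-low libraries, which overlapped (log2 difference 0.01, 95% interval -0.23 to 0.25).

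The other MCM subunits differed in sign. Mcm6 had 792, 890.2 and 1104 normalised reads in BODIPY-high libraries, against 1206, 1122 and 1150 in BODIPY-low libraries. The groups did not overlap, and the log2 difference of -0.33 (SE 0.14) did not pass (limma adjusted p = 0.148). Mcm5 likewise lay below in every BODIPY-high library, at 644, 552 and 716 against 746, 737 and 815 in BODIPY-low libraries (log2 difference -0.27, limma adjusted p = 0.249). Mcm2, Mcm4 and Mcm7 had differences between 0.02 and 0.03 and overlapping groups, with 95% intervals that lay between -0.36 and 0.40. Exons of Mcm7 overlap those of Cops6 and Ap4m1 on the other strand, so its reads cannot be told apart from theirs there.

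Among the clamp and nucleotide genes, Pcna, the sliding clamp of DNA polymerase, was the only member of the 33 with every BODIPY-high library above every BODIPY-low library, against 18.0% of all tested genes. It had 1276, 1336 and 1392 normalised reads in BODIPY-high libraries and 1127, 1107 and 1244 in BODIPY-low libraries, a log2 difference of 0.20 (SE 0.11) that did not pass (limma adjusted p = 0.264). Rrm2, the small subunit of ribonucleotide reductase and the one tied to S phase, varied most, at 109, 155 and 331 in BODIPY-high against 366, 174 and 296 in BODIPY-low libraries. The groups overlapped, and the interval of its difference (-0.58) ran from -1.44 to 0.28. Rrm1, the large subunit, and Tyms, the thymidylate synthase, had differences of 0.11 and 0.00 (95% intervals -0.20 to 0.42 and -0.47 to 0.46). Pcna and Tyms have annotated pseudogenes, and how their reads were assigned is not known.

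Hmgb2 and Stmn1 are abundant in dividing cells but also act outside division. Hmgb2, which encodes a chromatin protein, lies on chromosome 8 (57511907 to 57515999). Its normalised reads were 773, 818 and 779 in BODIPY-high replicates 1, 2 and 3, against 1656, 1003 and 1105 in BODIPY-low replicates 1, 2 and 3. It was nearly constant among BODIPY-high libraries and lower there than in each BODIPY-low library. The means were 789.9 ± 24.4 in BODIPY-high and 1255 ± 351 in BODIPY-low libraries (SD, n = 3 each), and it fell (log2 difference -0.63, SE 0.17, limma adjusted p = 0.0347). With 1 library left out the limma call held only without BODIPY-low replicate 2, and the adjusted p was otherwise up to 0.101. Stmn1, which destabilises microtubules, had 696, 734 and 785 in BODIPY-high against 1199, 628 and 843 in BODIPY-low libraries, and the groups overlapped (log2 difference -0.22, limma adjusted p = 0.540).

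In G1 control, the inhibitor gene Cdkn1a fell rather than rose. Cdkn1a lies on chromosome 17 (29090976 to 29100727). Its normalised reads were 652, 1039.8 and 933 in BODIPY-high replicates 1, 2 and 3, against 1313, 1259 and 1379.8 in BODIPY-low replicates 1, 2 and 3. All BODIPY-high libraries lay below all BODIPY-low libraries, and BODIPY-high replicate 1 was the lowest. The means were 875 ± 200.3 in BODIPY-high and 1317 ± 60.3 in BODIPY-low libraries (SD, n = 3 each), a log2 difference of -0.62 (SE 0.16, limma adjusted p = 0.0308). With 1 library left out the limma call held without BODIPY-high replicate 1 or 2 (adjusted p = 0.0476 and 0.0148) and was otherwise lost, at up to 0.119. Exons of Cdkn1a overlap AC167363.2 on the other strand, so strand could not be told apart there.

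The D cyclins Ccnd3 and Ccnd1 had differences of opposite sign, and neither passed. Ccnd3, cyclin D3, had 1908, 1847 and 1703 normalised reads in BODIPY-high libraries, against 1768, 1324 and 1165 in BODIPY-low libraries. BODIPY-low replicate 1 lay within the BODIPY-high range, and the log2 difference was 0.38 (SE 0.15, limma adjusted p = 0.121). Ccnd1, cyclin D1, had 1244, 948 and 942 in BODIPY-high against 1485, 1076 and 1344 in BODIPY-low libraries, also overlapping (log2 difference -0.32, limma adjusted p = 0.219). Exons of Ccnd1, Ccnd3, Ccna2, Ube2c, Plk1 and Cenpu also overlap genes on the other strand.

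Over all 33 members, 4 fell and none rose, which is 12.1% falls against 3.52% of all tested genes. The members were picked with earlier results of these data known, so this share is a description of them.

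Wider lists of cell cycle genes, with the 33 members left out, held few calls. Of 74 tested mitosis genes 63 had a negative difference (median -0.46), against 51.9% of all tested genes. Of the 74, 3 fell and 1 rose (1.35%, against 9.79% of all genes). The falls were 4.05% of the list, near the 3.52% of all genes. All BODIPY-high libraries lay below all BODIPY-low libraries for 21 genes, or 28.4%, against 13.4%. At an unadjusted limma p below 0.05, 19 of the 74 were lower, against 11.0% of all genes, and 1 was higher, against 16.1%. Lbr, the lamin B receptor of the nuclear envelope, fell to 1908 ± 93.5 normalised reads in BODIPY-high libraries, against 3278 ± 127 in BODIPY-low libraries (SD, n = 3 each, log2 difference -0.78, limma adjusted p = 0.00033). Nuf2, part of the NDC80 kinetochore complex, fell to 68.0 ± 4.25 in BODIPY-high, against 157 ± 36.1 in BODIPY-low libraries (-1.18, limma adjusted p = 0.0177), and Tmpo, a lamina protein, fell by 0.35. With 1 library left out, the call held in 6 of 6 fits for Lbr, 5 of 6 for Nuf2 and 1 of 6 for Tmpo. Tubb4b, a beta-tubulin also found in cilia, rose to 3330.4 ± 614 in BODIPY-high, against 1717 ± 45.2 in BODIPY-low libraries (0.94, limma adjusted p = 0.000749).

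Of 59 tested replication genes outside the members 37 had a negative difference (median -0.12), against 51.9% of all tested genes. Of the 59, 2 fell (3.39%, near the 3.52% of all genes) and none rose, against 9.79% of all genes. E2f2, a transcription factor of the E2F family, had 57.5, 57.8 and 92.2 normalised reads in BODIPY-high libraries, against 201, 158 and 249 in BODIPY-low libraries. The groups did not overlap, and the fall (log2 difference -1.55, SE 0.30, limma adjusted p = 0.00625) held with any 1 library left out. Hells, a chromatin remodeller of replicating cells, fell to 22.2 ± 13.3 in BODIPY-high, against 66.7 ± 7.97 in BODIPY-low libraries (-1.69, limma adjusted p = 0.0398), and its call held in 1 of the 6 fits with 1 library left out.

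Of 27 tested G1 control genes none fell and 3 rose (11.1%, near the 9.79% of all genes that rose). Cdkn1c, which encodes the inhibitor p57, had 1304, 836 and 1893 normalised reads in BODIPY-high libraries, against 253, 231 and 221 in BODIPY-low libraries. The groups lay far apart (log2 difference 2.44, SE 0.25, limma adjusted p = 0.000139). Ccnd2, cyclin D2, had 218, 171 and 278 in BODIPY-high against 32.0, 27.7 and 72.4 in BODIPY-low libraries (2.41, limma adjusted p = 0.00221), and Tfdp2, an E2F partner, rose by 0.71, with the call held in 3 of 6 fits that left out 1 library. Of 18 tested p53 targets 1 fell (5.56%, against 3.52% of all genes) and 2 rose (11.1%, near the 9.79% of all genes). Btg2, an antiproliferative gene, fell by 0.60, while Perp, a desmosome protein, rose by 2.23, and both calls held in 6 of 6 fits that left out 1 library. Phlda3 rose by 1.02 (limma adjusted p = 0.0496), and its call was lost in all 6 of those fits, at adjusted p up to 0.166. Of 9 tested genes of CSF1 signalling, the growth signal of microglia, none passed the test (median -0.10), with 0 at an unadjusted p below 0.05.

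Markers of other cell types moved between the same libraries. Of 19 tested neutrophil markers 17 fell in BODIPY-high libraries (89.5%, against 3.52% of all tested genes). Of the 19, at least Elane, Mpo, Prtn3, Ms4a3, Cxcr2, Mmp8 and Retnlg passed the filter on low values only through BODIPY-low libraries. Their BODIPY-high means were at most 3.84, so their direction was partly set by the filter. Ltc4s, which stood at 3420 or more normalised reads in every library, was left out of the sum after its values were seen. The sums of the other 19 listed were 601, 2887 and 234 normalised reads in BODIPY-high replicates 1, 2 and 3, against 95498, 36924 and 38536 in BODIPY-low replicates 1, 2 and 3. Among BODIPY-low libraries this sum was highest in replicate 1 and lowest in replicate 2. The mitosis sum was highest in replicate 3 and lowest in replicate 2. The genes of primary granules, which are made by dividing neutrophil precursors, summed to 10.4, 49.8 and 6.36 in BODIPY-high libraries and to 692, 684 and 560.5 in BODIPY-low libraries. Among BODIPY-low libraries the primary granule sum was lowest in replicate 3, where the mitosis sum was highest. Ctsg of that list was at 0 in all BODIPY-high libraries. The listed genes of mature neutrophils summed to 187, 779 and 68.3 in BODIPY-high libraries and to 20064, 6268 and 7749 in BODIPY-low libraries. The part of neutrophils or their precursors in the values of the mitosis members was not tested.

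All 7 tested genes of the choroid plexus and ependymal list rose, against 9.79% of all tested genes. They summed to 250534, 149612 and 262003 normalised reads in BODIPY-high libraries, against 18425, 3716 and 7099.6 in BODIPY-low libraries. Foxj1 of that list was at 0 in 2 BODIPY-low libraries. The part of these cells in the values of Cdkn1c, Ccnd2, Perp and Tubb4b was not tested. Monocyte markers summed to 671 to 982 in BODIPY-high and 1098 to 1159.9 in BODIPY-low libraries. Of 6 tested 1 fell, Ly6c2 (16.7%, against 3.52% of all tested genes). The sums of erythroid, T and NK, and B cell markers overlapped between the groups, with values of at most 293, 71.4 and 674 in BODIPY-high and 105, 55.4 and 846 in BODIPY-low libraries. Within these lists Vpreb1, a B cell precursor gene, rose, with 21.7, 35.1 and 43.7 normalised reads in BODIPY-high libraries against 0, 1.07 and 6.50 in BODIPY-low libraries (limma adjusted p = 0.0184, held in 3 of 6 fits that left out 1 library). The cytotoxic cell gene Nkg7, below the filter, had 0 in every BODIPY-high library and 3.43, 11.7 and 7.42 in BODIPY-low libraries. Markers of neural progenitors, oligodendrocyte precursors and vessels summed to at most 92.3, 195 and 1353 in BODIPY-high and 244, 264 and 1245 in BODIPY-low libraries. Nes and Cspg4 of these lists fell and Sox2 and Pdgfra rose, and the calls held in 2, 1, 4 and 5 of 6 fits that left out 1 library. Foxj1, Vpreb1 and Sox2 passed the filter on low values only through BODIPY-high libraries (BODIPY-low means 3.81, 2.52 and 2.69). Their direction was therefore partly set by the filter.

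**Figure D5:**
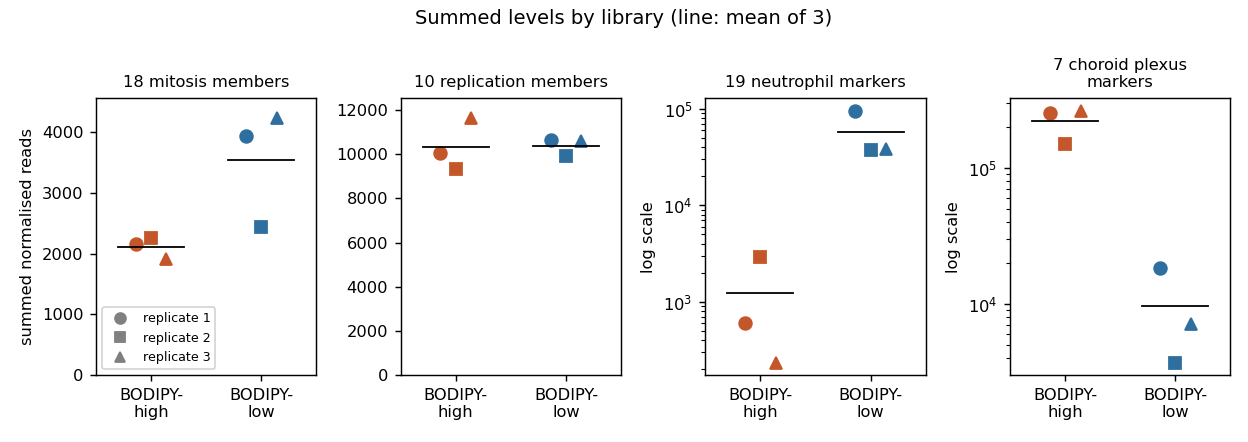
Summed normalised reads by library for the 18 mitosis members, the 10 replication members, 19 neutrophil markers without Ltc4s and 7 choroid plexus and ependyma markers (symbols mark the replicate, lines the mean of 3; the marker panels have log axes). The mitosis sum is at most 2248 in BODIPY-high and at least 2428 in BODIPY-low libraries, and the replication sums overlap.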

How the data were processed

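Per the series' design text, RNA with an integrity number above 9 was made into cDNA with SmartSeq v4 and libraries with Nextera XT. By the same text, STAR 2.5.3a aligned reads to mm10 and counted them per gene, after quality checks with FastQC 0.11.4, and the authors used DESeq2. The submitters' processing notes list mm9 beside mm10, the kits do not mark strand, and the sources used here do not give the annotation. Each deposited value is a signal that the authors normalised, in steps of 1 value per library. Whole reads, obtained by dividing by that step, were recovered for 100% of values at a tolerance of 0.01 read, and edgeR 4.0.16 and DESeq2 1.42.0 were run on them as alternatives.

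Groups were compared, two-sided and without a block, by limma 3.58.1 in R 4.3.3 with a variance trend, on log2(value + 1) for 12821 genes with a mean of at least 10, with Benjamini-Hochberg adjustment over all of them. The pseudocount of 1 shrinks the differences of low genes. The limma, edgeR and DESeq2 fits were tested on simulated counts. Alternatives were other pseudocounts, filters, scalings, a robust variance model, a replicate block and leaving out each library. Genomic positions are from GENCODE M21 (GRCm38). The members and lists were chosen with earlier results of these data known. Named genes were all members and, from wider lists, up to 5 rises and 5 falls that passed, with marker lists given by their sums.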

Additional observations from a re-analysis of the deposited data

How the results depend on the processing

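Of 2 mitosis members called, the count was 4 with DESeq2, 3 with the replicate block and between 0 and 3 with 1 library left out. The count of 0 replication members held under all 16 alternatives (at an unadjusted p below 0.05 limma gave 1, Mcm6). Over all genes 1706 were called (between 881 and 1662 with 1 library left out), of which 451 were falls (760 with the replicate block, and between 151 and 527 with 1 library left out) and 1255 were rises (between 662 and 1309 with 1 library left out). The cause of these shifts was not tested, beyond there being fewer samples. The main test did not take the replicate numbers as pairs, because the labels do not say whether they share a pool of mice. Deviations of same-numbered libraries from their group means correlated at 0.11, 0.14 and 0.07 for replicates 1, 2 and 3. Those of unlike numbers correlated at -0.115 to 0.002, so every library correlated best with its own number. With the replicate block Bub1b and Ccnd3 were also called (adjusted p = 0.0367 and 0.0443). The sign of the difference turned in 9 of 33 members with 1 library left out, all of them uncalled: it ranged from -0.13 to 0.14 for Mcm2, -0.0948 to 0.106 for Mcm3, -0.14 to 0.18 for Mcm4, -0.13 to 0.10 for Mcm7, -0.0167 to 0.185 for Rrm1, -0.12 to 0.20 for Tyms, -0.80 to 0.0205 for Bub1, -0.56 to 0.10 for Aurka and -0.45 to 0.0195 for Stmn1. With scaling to total reads Mcm3 was at -0.0018. The median difference of all genes lay between -0.03 and 0.00 over the alternatives. Cenpu had no value without any 1 BODIPY-low library or with a mean of at least 50, since it then failed the filter. Depth was lowest for Cenpu, at 2 to 21 recovered reads per library.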
